A study of Mus musculus with 502 samples.

Results

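The genes described here were the cytosolic ribosomal protein genes, taken from the count table by name. A row was a member when its name was Rpl or Rps followed by a number or by p0, p1 or p2, with at most the ending a, x, l or l1 and no dot, and 83 of 46603 gene rows met this, 51 Rpl genes of the large subunit and 32 Rps genes of the small subunit. Reads were found for 82 members, of which 76 were read in at least 50% of the 502 cells, and Rpl10l was read in none. The rule used no measured value. It left out some genes of the ribosome whose names differ, such as Rpsa, Rps3a1, Fau and Gnb2l1, and 250 rows with a dot in the name, which held 0.0601% of gene counts.

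Kidneys came from CD1 mice (outbred) of about 3 weeks, and sorting kept cells that were Cd45+ and negative for propidium iodide. Kidneys were dissociated fresh or after intact storage in HTS-FRS, an organ preservative solution, at 4 °C for 6 h or for 1, 2, 3 or 4 days, and for each timepoint the tissue combined was that of a single mouse, whole kidneys up to day 2 and pieces at days 3 and 4. Each cell label also holds the code IM793, IM834 or IM790, called its pool here, although no label says what the code marks (libraries, a sequencing run or mice). Pool IM793 held 75 fresh cells, 76 stored for 6 h, 78 from day 2 and 2 from day 4. Pool IM834 held 81 fresh cells, with 75 from day 1, 82 from day 3 and 19 from day 4, and the 14 cells in pool IM790 were all from day 4. A timepoint within a pool was 1 sample, because its cells are not replicates, and storage time and animal therefore cannot be told apart. No test was therefore made, and every difference below is a description of these cells. The same holds for the mouse, the day of handling and the library preparation between pools. A cell had a median of 695188 counts on genes (range 1759 to 1895431), and no pair of columns was identical. Ptprc, which encodes Cd45, was read in 90.8% of the cells.

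A ribosomal protein is a structural part of a cytosolic ribosome subunit, and most are needed in equal number for every ribosome, so their genes are among the most strongly and most evenly transcribed in growing cells. In vertebrates the mRNAs of these genes usually begin with a C followed by a run of pyrimidines, the terminal oligopyrimidine tract, through which mTOR signalling sets how well they are translated. Resting and activated lymphocytes differ widely in their content of ribosomes, while mature neutrophils are known for little protein synthesis.

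The start sites were searched for this feature. Windows of 30 bases, from 10 before to 20 after the start listed by RefSeq (GRCm38.p6), are shown for members that the results below turn on. The search was for a C followed by at least 4 bases that were each C or T, beginning between 10 bases before and 15 after the start. Capitals mark the longest such run of a window, shorter runs being left in lower case, and each line reads 5′ to 3′ on the strand of the gene.
Rps27: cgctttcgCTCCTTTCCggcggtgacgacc
Rps6: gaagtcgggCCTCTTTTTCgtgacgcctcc
Rpl38: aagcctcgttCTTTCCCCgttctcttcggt
Rpl27a: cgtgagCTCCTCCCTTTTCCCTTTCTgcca
Rpl15: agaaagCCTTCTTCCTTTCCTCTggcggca
Rps9: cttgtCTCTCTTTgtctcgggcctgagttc
Rpl26: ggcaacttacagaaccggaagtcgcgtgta
Rps27l: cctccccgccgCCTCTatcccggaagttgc
Rpl7l1: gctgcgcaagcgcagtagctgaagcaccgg
These windows are Rps27 at chr3:90213629-90213658 (minus strand), Rps6 at chr4:86857348-86857377 (minus), Rpl38 at chr11:114668570-114668599 (plus), Rpl27a at chr7:109519185-109519214 (plus) and Rpl15 at chr14:18270967-18270996 (minus). The others are Rps9 at chr7:3704031-3704060 (plus), Rpl26 at chr11:68901556-68901585 (plus), Rps27l at chr9:66946076-66946105 (plus) and Rpl7l1 at chr17:46782637-46782666 (minus). A tract was found in 42 of the 73 windows of the 61 members with a listed start (57.5%), against 34.3% of 21262 windows of protein-coding genes. Tracts of at least 8 bases were in 30.1% of the members' windows and 8.84% of all windows. On the opposite strand the same search matched 26% and 41.2%. Rpl26 and Rpl7l1 had no tract in these windows. A run whose first base lies outside the searched range is not marked, so the pyrimidines at the left end of the window of Rps27l are in lower case. A match is a match of letters and not a measured start.

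Members differed widely in level. Levels are given as rpm, the reads of a gene after every cell was scaled to the same total on genes, meaned over the 502 cells and divided by the coding length in GENCODE release 21 for GRCm38, which was found for 81 members. Among the highest were Rpl41 (7485 rpm per kb), which encodes the smallest ribosomal protein, Rps27 (3104), Rps14 (2589) and Rplp0 (2433). The lowest with any read were Rpl3l (1.85), a paralog best known from striated muscle, Rpl39l (3.45), Rpl29 (41.3), Rpl7l1 (120.8) and Rpl26 (195.01), while Rpl10l stood at 0. The scale is rough for these genes: 63 members had at least 50% of the 75-base words of their coding sequence in another annotated gene, mostly pseudogene copies, and 26 had all of them there, so reads from copies could not always be placed. The coding sequences of 10 members also overlapped exons of another gene, and counting ignored the strand.

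The stalk genes encode the acidic proteins that recruit translation factors to the large subunit. Rplp0, their anchor, alone held 0.241% of all gene counts and 5.42% of the counts on members, the mean level being 2433 rpm per kb, and Rplp1 and Rplp2 had 1617 and 1082 rpm per kb. All of them were read in over 450 cells (468, 460 and 457).

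Of the paralog pairs, the common copy was read in far more cells than the other in 6 of 7. Rps27 was read in 97% of cells and Rps27l in 41.6%, with 3104 and 254.4 rpm per kb. Rpl7 was read in 85.3% of cells and Rpl7l1 in 21.7%. Rpl3l was read in 13 cells, Rpl39l in 1 and Rps4l, annotated as a processed pseudogene, in 7, against 412 cells for Rpl3, 433 for Rpl39 and 449 for Rps4x. Rpl22l1 was the exception, with 529 rpm per kb in 320 cells against 401 in 354 cells for Rpl22, though 74.3% of the coding words of Rpl22l1 occur in another gene.

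Cells were sorted into gates by single genes. The T gate held cells with at least 10 rpm of Cd3e, a subunit of the T cell receptor complex, and the B gate those with 10 rpm of Cd79a, of the B cell receptor. The C1qb gate held cells with 100 rpm of this complement gene of macrophages, the Csf1r gate cells with 10 rpm of the receptor for macrophage growth factor and less C1qb, and the S100a8 gate cells with 100 rpm of this neutrophil gene. The B, Csf1r and S100a8 gates held 74, 75 and 32 cells and the T and C1qb gates more, while 19 cells met several rules and 74 none. Genes outside the rules were read as follows. In the T gate Cd3d was read in 88.5% and Lck in 87.5% of cells, and Thy1, the lowest of the genes listed for it, in 59.6%. In the B gate Cd79b was read in 100% and Cd22, the lowest listed for it, in 60.8%. Cd2, listed as a T cell gene, was read in 43.2% of B gate cells. The C1qb gate had C1qa in 98.4% and Cd68 in 87.9% of its cells, and Adgre1, the lowest listed for macrophages, in 68.5%. The Csf1r gate was less uniform, with Cd68 in 90.7%, the monocyte genes Ccr2 and Ly6c2 in 70.7% and 48%, the neutrophil gene Csf3r in 52% and the dendritic cell gene Flt3 in 8%. The S100a8 gate had S100a9 in 90.6% and Csf3r in 87.5% of its cells, but Retnlg and G0s2, also listed for neutrophils, in 53.1% and 50%. Ly6c2 was read there in 40.6% and Cd3d in 31.2%. Each of 5 kidney epithelium genes was read in at most 13.5% of the cells of any of these 5 gates.

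The share of a cell's gene counts that fell on members differed widely between gates. It had a lowest, median and highest value of 0.99%, 5.79% and 15.3% in the T gate and of 1.40%, 4.94% and 14.1% in the B gate. The Csf1r gate followed with 1.31%, 3.43% and 12.4%, the C1qb gate with 0.61%, 2.48% and 8.36%, and the S100a8 gate with 0.10%, 0.49% and 8.11%. Over all cells the lymphocyte gates were thus highest and the S100a8 gate lowest, and the ranges of all gates overlapped. The gates drew on the samples unequally, and their order changed within samples. In fresh cells of pool IM834 the median of the Csf1r gate (4.48%, 4 cells) stood above that of the B gate (4.30%). At 6 h that of the C1qb gate (4.58%, 5 cells) stood above that of the Csf1r gate (3.85%). At day 4 of pool IM790 that of the Csf1r gate (4.50%) stood above that of the T gate (4.47%), with 3 cells each. Neighbours in this order (T and B, B and Csf1r, Csf1r and C1qb) overlapped in their middle 50% of cells as well, while the middle 50% of the S100a8 gate, 0.32% to 0.78%, lay below those of the other 4, of which the lowest began at 1.80%. Summed over cells the share was 6.50%, 5.98%, 3.71%, 2.91% and 0.91% in the T, B, Csf1r, C1qb and S100a8 gates. The exact 95% interval of the S100a8 gate was 0.903% to 0.910%, which covers counting error only.

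Of all 45 cells with under 1% of their counts on members, 27 were in the S100a8 gate, and of the 45 cells above 8%, 20 were in the T gate, 16 in the B gate and 1 in the C1qb gate. After thinning every cell to 100000 counts, which left out 8 shallower cells, a cell had a median of 75 members read in the T gate, 73 in the B gate, 72 in the Csf1r gate, 68 in the C1qb gate and 15 in the S100a8 gate.

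**Figure D1:**
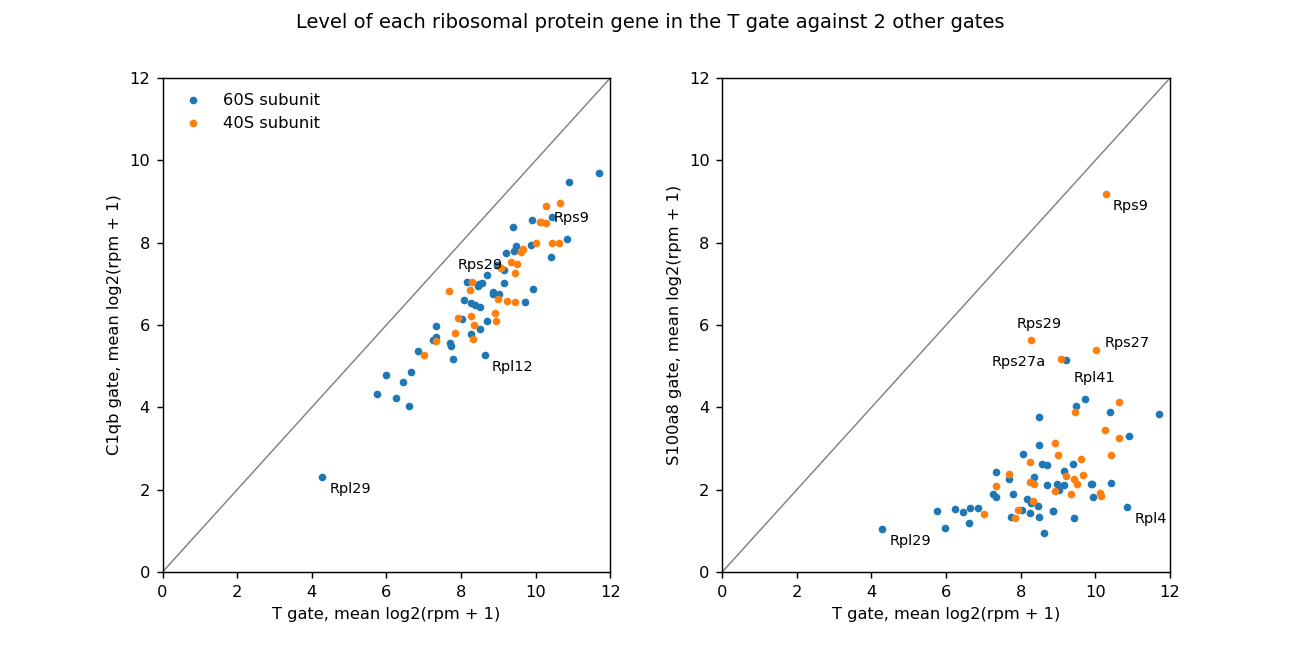
Mean log2(rpm + 1) of the 76 members read in at least 50% of all cells, in the T gate (x axis) against the C1qb gate (left) and the S100a8 gate (right). Each point is a gene, colours mark the subunit and the grey line marks equal levels. Every member lies below the line on the left, and on the right Rps9 stands apart from the rest, with 10.28 in the T gate and 9.19 in the S100a8 gate.

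Gene by gene, the members kept nearly the same order of gates. Over the 76 members read in at least 50% of cells, the mean log2(rpm + 1) was highest in the T gate for 69 and lowest in the S100a8 gate for 75. Of all 598 genes read in at least 50% of cells, 40% and 61.2% had the same place. The 76 members are among these 598 genes, here and below. The T gate exceeded the C1qb gate for 76 of 76 members, by a median of 1.84 on the log2 scale and by 0.85 to 3.36, where the 598 genes had a median of 1.10 and 75.6% of them were higher in the T gate. It exceeded the B gate for 70 of 76 members by a median of 0.52, against 0.42 over all 598 genes with 72.1% higher. Among the largest spans between the highest and the lowest gate, which had a median of 6.47 over the members, were those of Rpl4 (9.26), Rpl13 (8.27) and Rpl3 (8.13), all highest in the T and lowest in the S100a8 gate, where the span of the 598 genes had a median of 3.48. Apart from Rpl10l, with no read, the smallest belonged to Rpl39l, Rps12l1, Rps4l and Rpl3l (0.08 to 0.59), which were read in few cells, and then to Rps9 at 1.44.

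Rps9, a small subunit protein near the mRNA entry of the ribosome, had the highest mean log2(rpm + 1) of the members in the S100a8 gate. It was read in 30 of its 32 cells, with a lowest, median and highest level of 0, 823 and 3506 rpm, against medians of 1432 rpm in the T gate, 1301 in the B gate, 1051 in the Csf1r gate and 743 in the C1qb gate. Rpl4, of the large subunit, was read in 7 of the 32 cells and had a median of 0 there, against 2146 rpm in the T gate. Rps9 accordingly made up a median of 13.9% of the member counts of a cell in the S100a8 gate and of 2.35% to 2.86% in the other 4. In samples with at least 5 such cells, the median of Rps9 was 754 rpm in 12 fresh cells and 729 rpm in 13 cells of 6 h in pool IM793 and 1089 rpm in 5 cells of day 1 in pool IM834. Its median part of the member counts was 12.6%, 17.3% and 6.39% in these samples. The 5 cells of day 1 differed in that Rplp0 was read in 4 of them with a median of 561 rpm and a median part of 7.48%, above Rps9, whereas the median of Rplp0 was 0 in both samples of pool IM793. The gene lies at chr7:3703993-3706897 (GRCm38, plus strand), its coding exons overlap no other annotated gene, and 37% of its coding words occur in 1 other gene. Rps29, Rps27, Rps27a and Rpl41 came next in the S100a8 gate, with mean log2(rpm + 1) of 5.63, 5.38, 5.18 and 5.15. Small subunit genes took 51.5% of the member counts there and 41.2% to 42.2% in the other gates, and Rps9 alone took 11.2% there and 2.31% to 2.99% in the others.

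**Figure D2:**
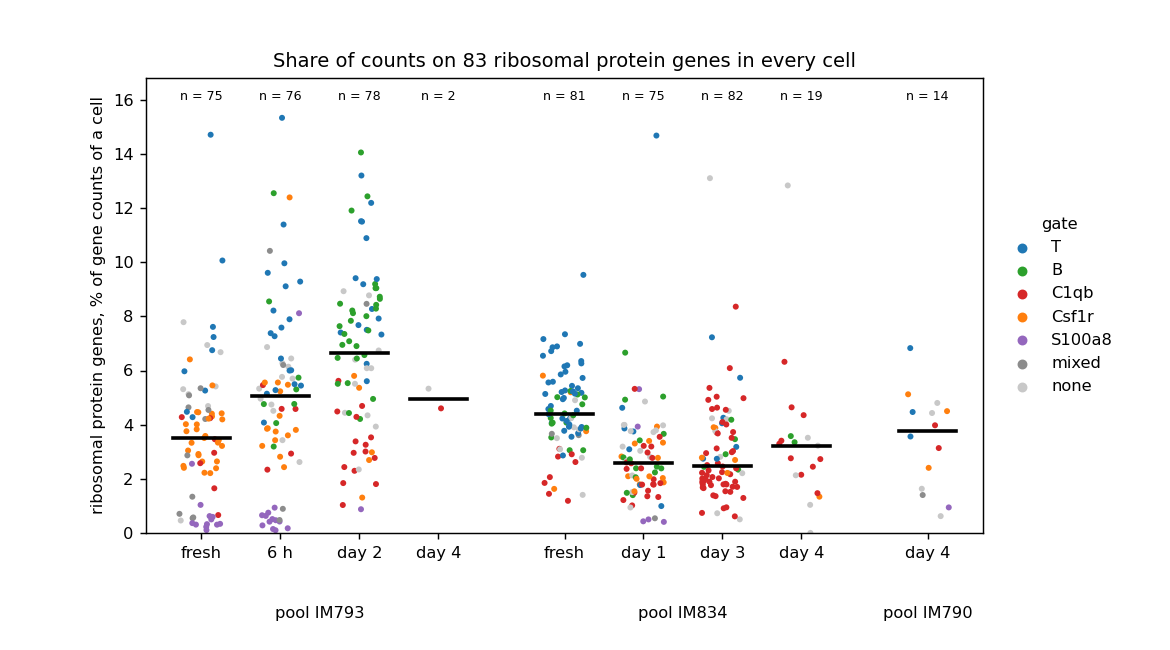
Percent of a cell's gene counts on the 83 members (y axis) for every cell, by timepoint and pool (x axis). Points are cells coloured by gate, and black lines are medians. The preserved cells of pool IM793 have higher medians than its fresh cells (5.05% and 6.65% against 3.51%), and those of pool IM834 lower ones (2.60%, 2.48% and 3.22% against 4.39%).

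The median share of ribosomal protein counts was higher in preserved cells than in the fresh cells of their pool in pool IM793 and lower in pool IM834. In pool IM793 the lowest, median and highest share was 0.11%, 3.51% and 14.7% in fresh cells, 0.10%, 5.05% and 15.3% at 6 h, and 0.88%, 6.65% and 14.1% at day 2. In pool IM834 it was 1.19%, 4.39% and 9.53% in fresh cells, 0.41%, 2.60% and 14.7% at day 1, 0.50%, 2.48% and 13.1% at day 3, and 0.0037%, 3.22% and 12.8% in the 19 cells of day 4. The medians thus differed from the fresh cells of the same pool by 1.54 and 3.15 percentage points at 6 h and day 2 and by -1.79, -1.91 and -1.16 at days 1, 3 and 4. All ranges overlapped. The fresh cells themselves differed by 0.88 percentage points between pools, the lower value being that of pool IM793. Comparisons within a pool share their fresh cells.

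The makeup of the samples moved with these medians. Fresh cells of pool IM793 held 9 cells of the T gate, none of the B gate and 12 of the S100a8 gate, and day 2 held 16, 29 and 1. Fresh cells of pool IM834 held 43, 16 and 0 cells of the same gates and 8 of the C1qb gate, and day 3 held 7, 5, 0 and 55. The number of genes read in a cell after thinning moved as well, with medians of 2176.5, 1686.5 and 1294 at fresh, 6 h and day 2 in pool IM793 and of 1552.5, 1655, 1443 and 1046 at fresh and days 1, 3 and 4 in pool IM834. The median mitochondrial share of counts was 2.02%, 2.51% and 3.11% in the first and 3.88%, 3.15%, 3.02% and 4.601% in the second. The part of gates, genes per cell and mitochondrial share in the difference over all cells was not tested, and the values within gates are given next.

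In the T gate the median share in pool IM793 was 6.75% in 9 fresh cells, 7.38% in 19 cells of 6 h and 8.73% in 16 cells of day 2. In pool IM834 it was 5.21% in 43 fresh cells, 3.75% in 7 of day 1 and 4.05% in 7 of day 3. Each preserved sample overlapped the fresh one (4.28% to 14.7% against 5.605% to 13.2% at day 2, and 2.86% to 9.53% against 2.74% to 7.23% at day 3). The median number of genes per thinned cell in this gate was 1832, 1660 and 1254 in pool IM793 and 1506, 1439 and 1422 in pool IM834, in the same order. Fresh T gate cells were higher in pool IM793 than in pool IM834 by 1.54 percentage points, which is opposite to the difference over all fresh cells.

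In the B gate 16 fresh cells of pool IM834 had a median of 4.30% (3.06% to 5.24%), 14 cells of day 1 had 2.59% (1.40% to 6.66%) and 5 cells of day 3 had 2.91% (2.34% to 4.18%). Pool IM793 had no fresh cell in this gate, and its medians were 5.03% in 8 cells of 6 h and 7.84% in 29 cells of day 2. The 29 B gate cells of day 2, from 4.21% to 14.1%, lay mostly above the fresh B gate cells of the other pool, which is a difference of pool and of time at once.

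In the C1qb gate the medians in pool IM834 were 2.34% in 8 fresh cells, 1.98% in 21 cells of day 1, 2.14% in 55 of day 3 and 3.03% in 10 of day 4, and in pool IM793 they were 2.96% in 7 fresh cells, 4.58% in 5 of 6 h and 3.01% in 15 of day 2. Day 4 of this gate thus stood above the fresh cells, opposite to all cells of day 4. Of these 10 cells, 9 had under 1200 genes after thinning to 100000 counts (median 3.30%) and the other stood at 2.73%, while all 8 fresh cells had more. Within day 3 the share followed how many genes a cell had: 20 cells of the C1qb gate with under 1200 genes after thinning had a median of 3.72%, and 34 cells with more had 1.92%. Their median mitochondrial shares were 5.56% and 2.57%. Across these 54 cells of 1 sample the share and the number of genes had a Spearman correlation of -0.52, where both come from the same counts. In the other samples in which it was computed the value was -0.11 (20 C1qb gate cells of day 1), 0.02 (42 fresh T gate cells of pool IM834), 0.0005 (29 B gate cells of day 2) and 0.31 (29 fresh Csf1r gate cells of pool IM793). The Csf1r gate had 3.51% in 29 fresh cells, 3.85% in 15 cells of 6 h and 2.98% in 5 of day 2 in pool IM793, so its day 2 was below fresh. In pool IM834 it had 4.48% in 4 fresh cells and 2.10% in 13 of day 1. The S100a8 gate had 0.35% in 12 fresh cells and 0.47% in 13 of 6 h of pool IM793. At day 1 of pool IM834 it had 0.50% in 5 cells (0.41% to 5.31%).

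**Figure D3:**
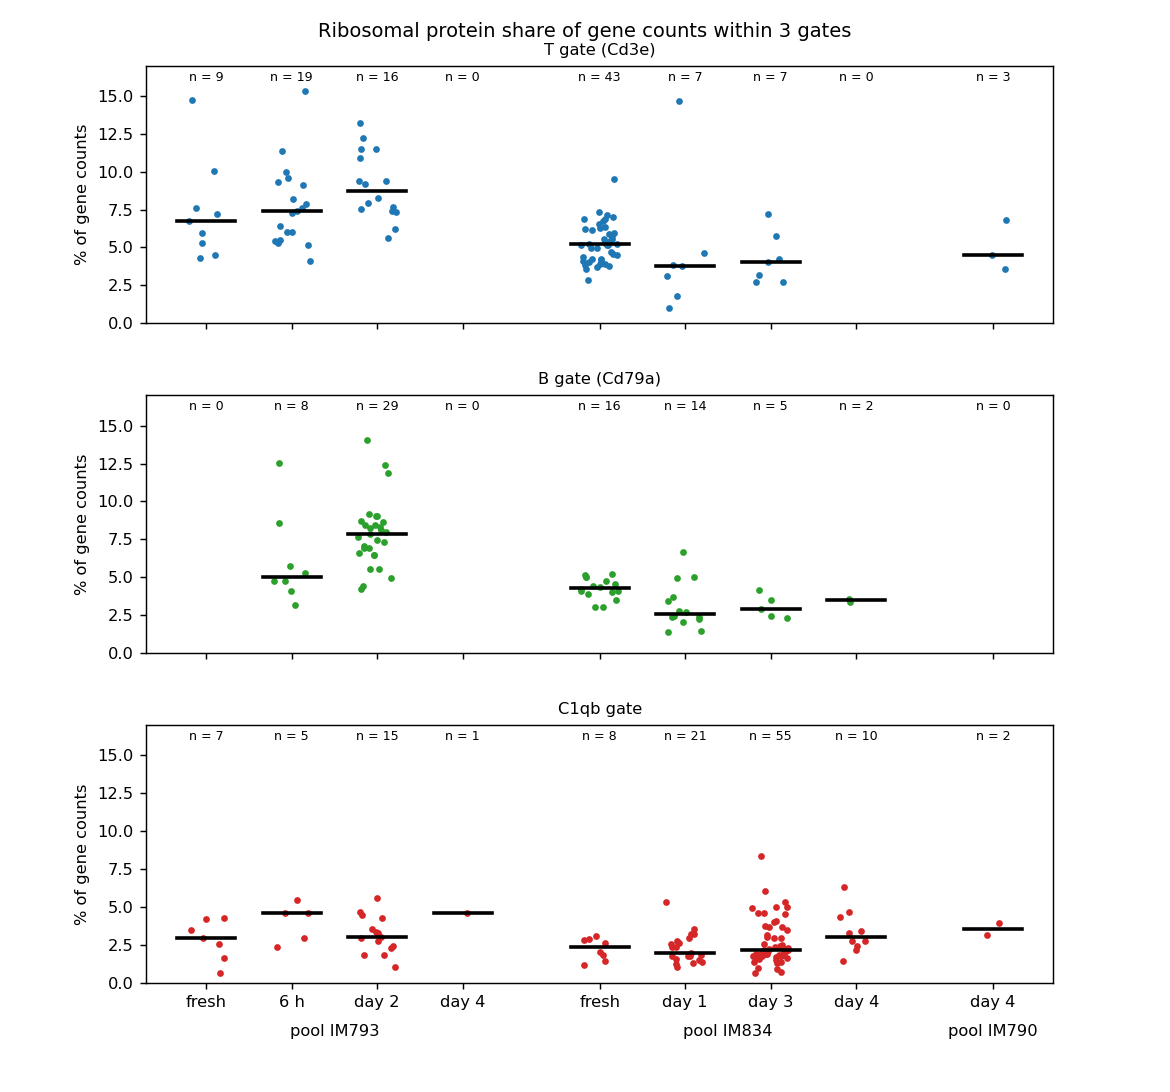
Percent of gene counts on the members (y axis) in cells of the T, B and C1qb gates, by timepoint and pool (x axis). Points are cells, black lines are medians and n is the number of cells. The T gate medians run from 6.75% to 8.73% in pool IM793 without its day 4 and from 3.75% to 5.21% in pool IM834, and those of the C1qb gate lie between 1.98% and 4.602%.

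Single members moved together within a pool. For each sample the counts of all its cells were added and scaled to CPM, and log2 ratios were taken of genes that reached 50 counts in each of the sums compared, where 2-fold marks a large difference and no test stands behind it. At 6 h the median log2 ratio over 80 members was 0.44, with 73 above 0, and over all 10346 genes it was 0.16, with 56.5% above 0. At day 2 it was 0.79 over 79 members, with 77 above 0, and 0.23 over all genes, with 57% above 0. In pool IM834 it was -0.67 at day 1, with 76 of 78 members below 0, -0.53 at day 3, with 76 of 79 below 0, and -0.08 over all genes in both, of which 47.1% and 47.4% were above 0. At day 4 it was -0.18, with 55 of 78 below 0 where 56% of all genes were above 0, and this sign turned under both other scalings (0.0054 by TMM and 0.22 by DESeq2 size factors). These scalings add 1 value to every gene, so the place of the members below all genes, with a median of 0.25 at day 4, is the same under each. Genes read in at least 50% of cells of both samples are closer to the members in depth, and their medians were 0.25 and 0.60 at 6 h and day 2 and -0.32, -0.21 and -0.04 at days 1, 3 and 4, so the members differed from them in the same direction by smaller steps. Of these genes 67.4%, 72%, 29.7%, 32.4% and 48.6% were above 0, in the same order. The SD over the members of this narrower set was 0.21 to 0.28 from 6 h to day 3 and 0.59 at day 4.

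Within a gate, sums could be compared where both samples held at least 10 of its cells. In the Csf1r gate at 6 h the median over 79 members was 0.23, with 60 above 0, against 0.14 over all 6431 genes with 55.2% above 0. In the S100a8 gate at 6 h it was 0.85 over 74 members, with 63 above 0, against 0.0050 over all 2758 genes with 50.2% above 0. A median of 73.1% of a member's counts in these S100a8 sums came from 1 cell, 1 cell of 6 h having a share of 8.11% against the median of 0.47%, and 5 members were read in at least 50% of cells of both samples. In the B gate at day 1 it was -0.50 over 76 members, with 71 below 0, against -0.04 over all 4171 genes with 49.1% above 0. The value of the Csf1r gate was thus nearer to that of all genes than the value over all cells of 6 h.

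**Figure D4:**
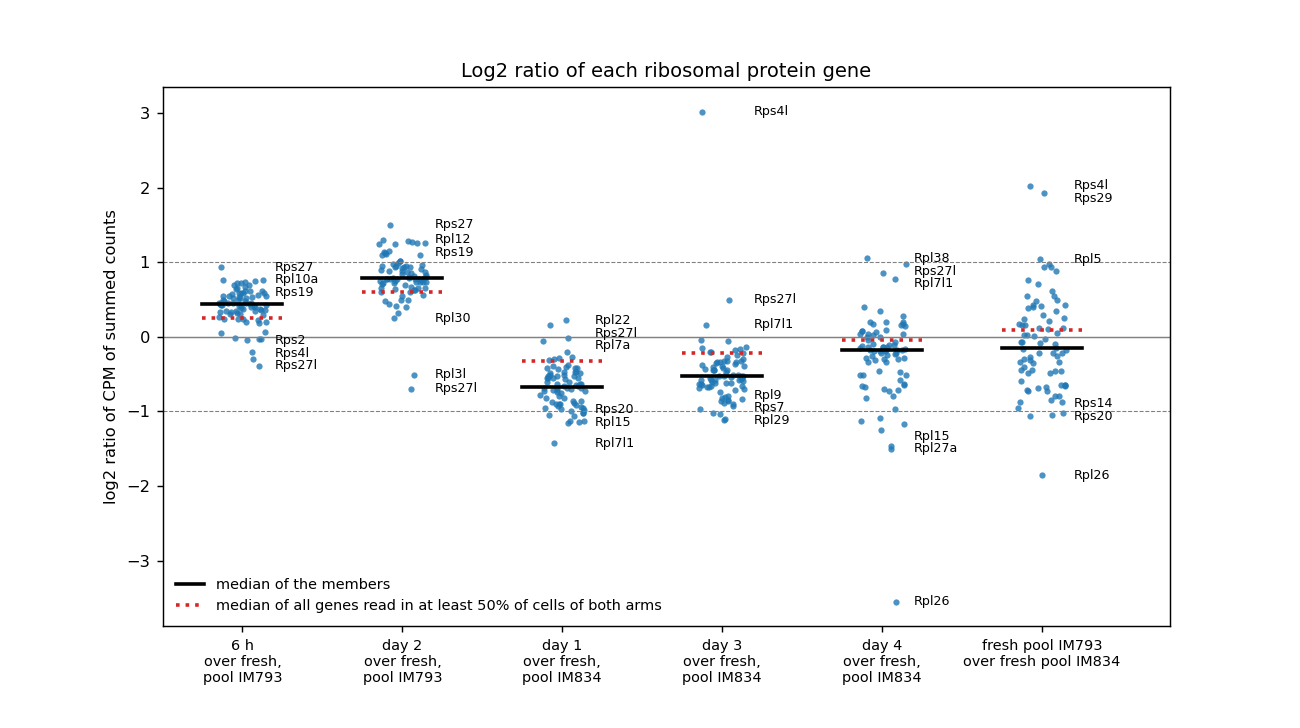
Log2 ratio of the CPM of summed counts for each member (y axis, blue points) in the 5 comparisons with fresh cells of the same pool and between the fresh cells of both pools (x axis). Black lines are medians of the members, red dotted lines medians of all genes read in at least 50% of cells of both samples, dashed lines 2-fold, and the 3 highest and 3 lowest members are named. Members lie mostly above 0 at 6 h and day 2 and below 0 at days 1 and 3.

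The count of members at 2-fold depended on the measure and is to be read against that of all genes. On the summed counts, at 6 h none of the 80 members was 2-fold higher or lower, where 21.5% of all genes were higher and 15.1% lower (5.93% and 1.55% of the genes read in at least 50% of cells). At day 2, 16 of 79 were higher and none lower, where 27.1% of all genes were higher and 18.4% lower (22.2% and 2.82% of broadly read genes), so this share was near the background. At day 1 none was higher and 9 of 78 were lower, where 20.1% of all genes were higher and 21% lower (4.07% and 7.13% of broadly read genes). At day 3, 1 of 79 was higher and 4 lower, where 21.1% were higher and 22.4% lower (4.85% and 6.63%). At day 4, 1 of 78 was higher and 7 lower, where 33.2% were higher and 22.8% lower (6.31% and 6.31%). On the summed counts no member was 2-fold apart in the same direction in 3 of the 5 comparisons. Members were measured in far more cells than most genes: at day 2 a median of 4.76% of a member's counts came from 1 cell, against 37.5% for all genes compared.

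Other scalings and another fold gave other counts. By TMM and by size factors 8, 5 and 3 members were 2-fold apart at days 2, 1 and 3, where 44.2%, 40.9% and 43.4% of all genes were by TMM and 44.2%, 40.8% and 43.5% by size factors. At day 4, 3 were higher and 4 lower by TMM, where 37.2% of all genes were higher and 19.8% lower, and 4 and 3 by size factors, where 42.6% and 16.5% were. At 1.5-fold, on the CPM of summed counts without these scalings, 18, 68, 47, 32 and 21 members were apart at 6 h, day 2, day 1, day 3 and day 4. Of all genes 57.3%, 65.8%, 62%, 63.6% and 73.3% were apart, in the same order. Between the fresh cells of both pools it was 30 members, against 67.1% of all genes.

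The counts were larger by the difference of the means of log2(rpm + 1) over cells, in which cells without a read weigh more. At 6 h 4 members were 2-fold higher and 1 lower by this measure, where 1.38% of all genes were higher and 10.9% lower (2.96% and 17.3% of broadly read genes). At day 2, 57 were higher and 1 lower, where 2.8% and 21.9% of all genes were (27.3% and 22.6% of broadly read genes). In pool IM834 no member was higher, and 57 were lower at day 1, where 6.21% of all genes were higher and 5.56% lower (7.94% and 31.8%). At day 3, 65 were lower, where 4.18% of all genes were higher and 10.2% lower (5.87% and 44.6%), and at day 4, 68 were lower, where 4.12% were higher and 25.2% lower (2.85% and 63.8%).

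Rps27, whose zinc finger protein sits on the small subunit, had the highest ratio of pool IM793 at both times. Its lowest, median and highest level was 0, 491 and 3905 rpm in fresh cells, 0, 834.4 and 4863 rpm at 6 h and 0, 1423 and 4301 rpm at day 2. The cells overlapped, and the summed level rose from 533 to 1017 and 1513 CPM, which are log2 ratios of 0.93 and 1.51. In pool IM834 the medians of Rps27 were 763 rpm in fresh cells, 362 at day 1, 299 at day 3 and 374 at day 4. Rpl10a (0.77) and Rps19 (0.76), the gene most often mutated in Diamond-Blackfan anaemia, followed at 6 h, and Rpl12 (1.30), at the base of the stalk, and Rps19 (1.29) at day 2. The lowest members were Rps27l (-0.39), Rps4l (-0.29) and Rps2 (-0.21) at 6 h and Rps27l (-0.69), Rpl3l (-0.51) and Rpl30 (0.25) at day 2. Without the top cell of each sample Rps4l stood at 0.28, and Rpl3l had no value.

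In pool IM834 the lowest members were Rpl7l1 (-1.43), Rpl15 (-1.15) and Rps20 (-1.14) at day 1 and Rpl29 (-1.12), Rps7 (-1.11) and Rpl9 (-1.04) at day 3. The highest at day 1 were Rpl22 (0.22), Rps27l (0.15) and Rpl7a (-0.01), and the value of Rpl22 was -0.21 without the cell of highest count in each sample. At day 3 they were Rps4l (3.02), whose counts came from 1 cell in each sample, Rps27l (0.50) and Rpl7l1 (0.16, and 0.03 without the top cell of each sample). At day 4 the lowest were Rpl26 (-3.55), Rpl27a (-1.502) and Rpl15 (-1.47), and the highest were Rpl38 (1.05), Rps27l (0.98) and Rpl7l1 (0.85). Without the top cell of each sample, the last 3 were 0.73, -0.30 and -0.44. Rpl26, whose protein is also known to bind p53 mRNA, was read in 10 of the 19 cells of day 4 with a median of 1.9 rpm, against 76 of 81 fresh cells with a median of 124.5 rpm.

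The stalk genes moved with the other members at 6 h and at days 1, 2 and 3. Rplp0, Rplp1 and Rplp2 had log2 ratios of 0.58, 0.52 and 0.73 at 6 h and of 0.85, 1.02 and 1.12 at day 2. At day 1 they had -0.96, -0.90 and -0.55, at day 3 -0.83, -0.70 and -0.33, and at day 4 -0.70, 0.16 and 0.08. Rplp0 had a lowest, median and highest level of 0, 1322 and 7149 rpm in fresh cells of pool IM793 and 0, 2581 and 10800 rpm at day 2, and of 96.2, 2631 and 9657 rpm in fresh cells of pool IM834 and 0, 1384 and 15861 rpm at day 3.

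Rps27l, a paralog of Rps27 that p53 induces, had the opposite sign to the median member in all 5 comparisons, although at day 4 the sign of that median turned with the scaling. Its summed level was 83.7 CPM in fresh cells of pool IM793, 63.8 at 6 h and 51.8 at day 2, and 49.2 CPM in fresh cells of pool IM834, 54.8 at day 1, 69.5 at day 3 and 97.1 at day 4. It was read in 42 of 75, 29 of 76 and 28 of 78 cells of pool IM793 and in 31 of 81, 29 of 75, 35 of 82 and 5 of 19 cells of pool IM834, in the same order. The sign held without the top cell of each sample except at day 4, where 65.1% of its counts came from 1 cell, and under TMM and size factors at 6 h and days 1 to 3. Unlike 69 of the 76 broadly read members, Rps27l was highest in the Csf1r gate (mean log2(rpm + 1) 3.71) and the C1qb gate (3.62), with 2.08 in the T, 1.501 in the B and 0.50 in the S100a8 gate. The C1qb and Csf1r gates held 7 and 29 fresh cells, 5 and 15 cells of 6 h and 15 and 5 of day 2 in pool IM793. In pool IM834 they held 8 and 4 fresh cells, 21 and 13 of day 1, 55 and 5 of day 3 and 10 and 1 of the 19 cells of day 4. The level of Rps27l within a gate at each timepoint is not given here, and the part of the gates in its change was not tested.

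The makeup of the ribosomal protein counts was also compared between pools. Between the fresh cells of both pools, the SD of the log2 ratio over 76 broadly read members was 0.61, against 0.21 to 0.28 for 6 h and days 1 to 3 and 0.59 for day 4 within a pool, while the median over 79 members was -0.14. Of these 79 members 3 were 2-fold higher and 4 lower in pool IM793, where 19.1% of all genes were higher and 28.2% lower (16.1% and 9.25% of the broadly read genes). By TMM and by size factors 6 were higher and 1 lower, where 20.6% and 26% of all genes were by TMM and 20.5% and 26.1% by size factors. By the means of log2(rpm + 1) over cells 2 were higher and 45 lower, where 17.1% of all genes were higher and 4.5% lower (27.6% and 20.1% of the broadly read genes). The highest ratios were those of Rps4l (2.03, from 2 cells and 1 cell), Rps29 (1.93) and Rpl5 (1.04), and the lowest those of Rpl26 (-1.85), Rps20 (-1.06) and Rps14 (-1.05).

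Each member's percent of all member counts was compared between fresh, 6 h and day 2 of pool IM793 and fresh and days 1, 3 and 4 of pool IM834, a comparison chosen after the values were seen. Of 76 members, 24 were higher in all 3 samples of pool IM793 than in all 4 of pool IM834 and 15 were lower in all, and 37 overlapped. For the 598 broadly read genes, the percent of the counts on these 598 genes was higher for 32.1% and lower for 3.51%. That total is not the member total, within which a rise of some members lowers the percent of others. These shares are therefore no matched background for the percents of member counts, while the CPM scale is the same for both sets. On the CPM scale 28 of the 76 members were higher in all samples of pool IM793 and none lower, against 30.1% and 4.18% of these 598 genes.

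Rps29, a small zinc-binding protein of the small subunit, was the widest case. It took 1.28%, 1.22% and 1.42% of member counts in pool IM793 at fresh, 6 h and day 2, and 0.28%, 0.44%, 0.36% and 0.60% in pool IM834 at fresh and days 1, 3 and 4. Its median was 452, 573 and 858 rpm in the first and 107.8, 106.6, 78.7 and 142.7 rpm in the second. In the T gate the medians were 723, 891 and 1307 rpm in pool IM793 and 138.4, 108.8 and 138.1 rpm at fresh, day 1 and day 3 of pool IM834, and in the B gate 407 and 929 rpm at 6 h and day 2 against 92, 90 and 68 rpm, so the gap was there within both gates. In the C1qb gate they were 391, 678 and 512 rpm against 61, 119.7, 77.1 and 238.1 rpm at fresh and days 1, 3 and 4. Day 4 cells of the other pools had 1.25% (the 2 cells of pool IM793) and 0.94% (the 14 cells of pool IM790).

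Rpl5 and Rpl11, which bind the smallest rRNA of the large subunit and, when free, Mdm2, were on the same side. Rpl5 took 1.49%, 1.27% and 1.26% in pool IM793 and 0.60%, 0.63%, 0.62% and 0.39% in pool IM834, and Rpl11 1.17%, 1.19% and 1.10% against 0.66%, 0.56%, 0.67% and 0.50%. Rpl27a, with its long start tract shown above, took 0.88%, 1.03% and 1.06% against 0.37%, 0.37%, 0.54% and 0.16%. On the other side, Rpl14 took 0.92%, 0.83% and 0.91% in pool IM793 against 1.39%, 1.60%, 1.47% and 1.44%. The 2 subunits kept their ratio, with small subunit genes at 40.7% to 43.3% of member counts in these 7 samples and 37.3% in pool IM790. All coding words of Rps29, Rpl5, Rpl11 and Rpl27a occur in other annotated genes, as do 68.1% of those of Rpl14. The part of read placement in these differences was not tested.

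**Figure D5:**
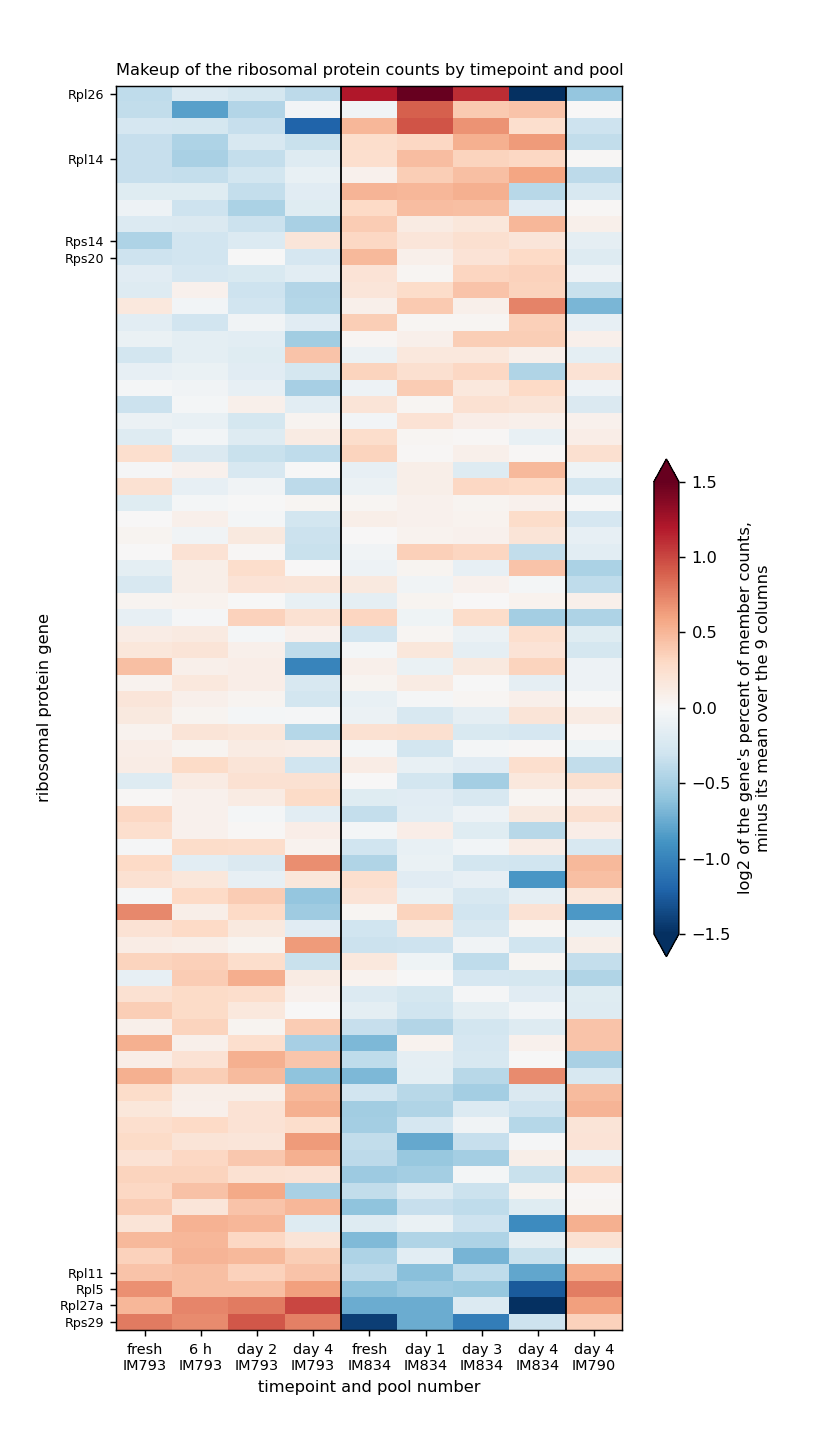
Each row is one of the 76 broadly read members, with genes named in the comparison of the pools labelled, and each column a timepoint of a pool (pool numbers under the timepoints, black lines between pools). Colour is log2 of the gene's percent of member counts minus its mean over the 9 columns. Of these members 24 are higher in fresh, 6 h and day 2 of pool IM793 than in every column of pool IM834. Another 15 are lower, and Rps29 is the widest case. Of the 598 broadly read genes 32.1% are higher and 3.51% lower by their percent of the counts on these 598 genes, which is another total. On the CPM scale, the same for both sets, 28 members are higher and none lower, against 30.1% and 4.18% of the 598 genes.

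Other genes of the ribosome and of translation were read from fixed lists, described by counts and medians. Of 6 ribosome genes outside the naming rule, such as Rpsa, Rps3a1 and Rpl36al, 5 were above 0 at 6 h and at day 2 (medians 0.35 and 0.61) and 0 of 6 and 1 of 6 at days 1 and 3 (-0.63 and -0.58), with none 2-fold apart. Rps3a1 had 0.44, 0.70, -0.75 and -0.83 at 6 h, day 2, day 1 and day 3. The exceptions were Rpsa, with -0.21, 0.26, -0.87 and -0.77, and Rpl36al, with 0.01, -0.12, -0.22 and 0.18, both named after their values were seen. Of 15 further genes with known pyrimidine tracts, mostly translation factors, 10 and 12 were above 0 at 6 h and day 2 (0.28 and 0.26, 1 of them 2-fold higher at day 2), and 0 and 3 at days 1 and 3 (-0.76 and -0.60, 3 of them 2-fold lower at day 1), where 27.1% of all genes were 2-fold higher at day 2 and 21% lower at day 1. The median of 0.26 at day 2 was near the 0.23 of all genes. Eef1a1, the elongation factor that brings tRNA to the ribosome, had 0.28, 0.72, -0.78 and -0.48, Eef1b2 0.34, 0.73, -1.11 and -0.70, and Eef1d 0.32, 0.69, -0.77 and -0.79. Tpt1, a strongly expressed gene with such a tract that was named after its values were seen, had 0.19, 0.08, -0.76 and -0.46.

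Of 18 genes of ribosome assembly, such as Fbl, Nop56 and Nop58, 3 and 6 were 2-fold higher and 0 and 3 lower at 6 h and day 2 (medians 0.25 and 0.74), where 21.5% and 27.1% of all genes were higher and 15.1% and 18.4% lower. At days 1 and 3, 0 were higher and 10 and 5 lower (-1.03 and -0.53), where 21% and 22.4% of all genes were lower. Mitochondrial ribosomal proteins, which serve the other ribosome of the cell, had medians over 75 or 76 of 77 genes of 0.24 and 0.23 at 6 h and day 2, and -0.35 and 0.07 at days 1 and 3, where all genes had 0.16, 0.23, -0.08 and -0.08. The large and the small subunit members had near medians throughout, 0.45 and 0.40 at 6 h and 0.78 and 0.86 at day 2 in pool IM793, then -0.64 and -0.74 at day 1 and -0.52 and -0.55 at day 3 in pool IM834. At day 4 the medians were -0.21 for the 6 ribosome genes, -0.63 for the 15 translation genes, -0.27 for 9 assembly genes and 0.19 for 52 mitochondrial ones, with 0.25 over all 4952 genes compared.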

How the data were processed

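Libraries were of the SmartSeq2 type without molecular identifiers, so values are reads and not molecules. The authors cut reads to 75 bp, took out duplicates (picard), mapped to GRCm38 (STAR) and counted per gene (HTSeq, intersection-strict, strand ignored). For the versions, and for reads with several equal matches, the sources used here give nothing. The deposited values are raw counts per gene for 502 cells, with 0 columns left without a sample. Rows that name no gene (0.140% of counts) were left out of totals. Rn18s.rs5 (6.60% of gene counts) was kept.

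Depth per cell ran from 1759 to 1895431 counts. Shares were taken of all gene counts of a cell; intervals are exact Clopper-Pearson at the 95% level and cover counting error only. Members read were counted after thinning to 100000 counts. Sums per timepoint and pool were compared as log2 ratios of CPM with a minimum of 50 counts in both, within gates only with at least 10 cells in both. Coding lengths and shared 75-base words came from GENCODE release 21, in place of the protein lengths planned, and start windows from RefSeq. Python 3.11.15, numpy 2.4.6, pandas 2.3.3, scipy 1.17.1, R 4.3.3, edgeR 4.0.16 and DESeq2 1.42.0 were used, the last 2 for scaling alone. The ratio was tried on simulated sums with counting noise only. These held no variation between cells, so they cannot show how reliable the ratios are in these data.

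The members, gates and lists were chosen with earlier results of these data known. Genes were named by rule: the 5 highest and 5 lowest per coding length, paralog pairs, stalk genes, the 3 highest and 3 lowest ratios of each comparison, the 5 largest and 5 smallest spans between gates, and members 2-fold apart in 3 comparisons. Rps29, Rpl5, Rpl11, Rpl27a and Rpl14 in the comparison of pools, and Rps27a, Rpl41, Rps29, Rps27 and Rplp0 in the S100a8 gate, were named after their values were seen. Some genes that the rule names are not reported here. Alternatives covered the total, the summary over cells, the cells kept, the gates, the scaling, the minimum and the reference cells.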

Additional observations from a re-analysis of the deposited data

Results flagged for a closer look

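The difference of the median ribosomal protein share from the fresh cells of the same pool was positive at both timepoints of pool IM793 (1.54 percentage points at 6 h and 3.15 at day 2) and negative at all 3 of pool IM834 (-1.79, -1.91 and -1.16 at days 1, 3 and 4). The opposite signs in the 2 pools put these values here. The difference between the pools was not tested. Besides fresh, only day 4 had cells in both, and its 2 cells of pool IM793 entered no such difference.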

How the results depend on the processing

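No paired analysis was possible because no result comes from a test. With no replicates, a median share was held to have moved at 0.5 percentage points, a median log2 ratio at 0.2, and a count at 1.5 times. All 9 medians of members read and all shares by gate stayed within these limits. With all fresh cells as reference the share difference was 0.886 at 6 h and 2.49 at day 2, and without 18S and mitochondrial rows in the total it was -2.42 at day 3. In alternatives chosen after seeing the data, the T gate alone gave 0.628 at 6 h, 1.98 at day 2, -1.15 at day 3 and the reversed 1.54 for fresh pool IM793 minus fresh pool IM834; without the S100a8 gate the values were 2.54 at day 2 and -0.194 between fresh pools. The cause was not tested. TMM and DESeq2 size factors shifted every gene by -0.17 and -0.15 (log2) at 6 h, -0.21 and -0.16 at day 2, and 0.18 and 0.40 at day 4. The median ratio of the members was then 0.58 at day 2 by TMM, and at day 4 it reversed to 0.0054 by TMM and 0.22 by size factors. The means of log2(rpm + 1) over cells gave 1.41 at day 2, -1.32 at day 1, -1.37 at day 3, -2.08 at day 4 and -1.09 between fresh pools. The number of members 2-fold apart was 0, 16, 9, 5, 8 and 7 at 6 h, day 2, day 1, day 3, day 4 and between fresh pools. It was 8, 5 and 3 at days 2, 1 and 3 by TMM and by size factors. By these means it was 5, 58, 57, 65, 68 and 47, and at 1.5-fold 18, 68, 47, 32, 21 and 30, in the order of the 6 comparisons. At 6 h it was 2 with no minimum and 2 with all fresh cells, where 52% and 32.8% of all genes were 2-fold apart. By TMM the members 2-fold higher and lower were 3 and 4 at day 4 and 6 and 1 between fresh pools, and by size factors 4 and 3 and 6 and 1. Among the comparisons over all cells of a sample, depth limits day 4 most. Its 19 cells of pool IM834 held 8304071 counts, and a median of 22.5% of a member's counts came from 1 cell.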

Other observations

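Single cells reached far beyond the medians. The highest share on ribosomal protein genes, 15.3%, was that of a T gate cell of 6 h, and T gate cells of the fresh kidney of pool IM793 and of day 1 had 14.7% each; the latter had 602 genes read. A cell of day 3 and another of day 4 in pool IM834 that met no gate had 13.1% and 12.8% with 418 and 468 genes read. The lowest share, 0.0037%, was that of a day 4 cell of pool IM834 with 54700 counts on 75 genes, and the next 9 were all cells of the S100a8 gate from fresh and 6 h kidneys of pool IM793.

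Across the 29 B gate cells of day 2 the share had a Spearman correlation of 0.61 with the mitochondrial share and of 0.06 with depth, and across 42 fresh T gate cells of pool IM834 these were 0.36 and -0.21. In the other samples in which it was computed the correlation with the mitochondrial share was 0.29 (20 C1qb gate cells of day 1), 0.15 (54 of day 3) and 0.11 (29 fresh Csf1r gate cells of pool IM793), and that with depth -0.16, 0.06 and 0.06. Both shares are parts of the same total, and cells of a sample are not replicates. The 63 rows with dotted names that had at least 50 counts in both sums had median log2 ratios of 0.67 at 6 h and 0.88 at day 2, and 18 and 19 such rows had -0.68 and -0.47 at days 1 and 3, on the same side as the members they resemble in name.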
